A study of Mus musculus with 13 samples.

Results

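These arrays ask whether a pair of treatments of a mouse melanoma add up: transfer of T cells that recognise the tumour, and joint inhibition of BRAF and MEK. Of the 13 arrays of the series, the 9 whose titles name both-drug or vehicle tumours in either kind of recipient were compared. The tumour, SM1, is a mouse melanoma with mutant BRAF (V600E), grown in mice that were given splenocytes by adoptive transfer. The groups were pmel-1 recipients given dabrafenib and trametinib (3 arrays), pmel-1 recipients given vehicle (2), C57BL/6-splenocyte recipients, called control recipients, given both drugs (2), and control recipients given vehicle (2). All 4 groups therefore carried the same tumour and an adoptive transfer, and differed in the source of the transferred cells and in the drugs. The labels name splenocytes, not purified T cells, as the transferred cells. Pmel-1 T cells carry a transgenic receptor for the melanocyte protein gp100, which is made by Pmel. The labels give no dose, time, host age or batch and do not tie arrays to separate mice, so p-values cover only the spread between these arrays, which may be technical.

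Dabrafenib blocks mutant BRAF and trametinib blocks MEK, the next kinase of the pathway that ends in ERK. In melanoma cells this pathway drives growth and holds down pigment cell genes. Activated T cells release interferon gamma, which acts through JAK kinases and then through IRF1 on genes for chemokines, GTPases that attack intracellular pathogens, and MHC class I and II presentation. The interaction asks whether the drugs moved a gene by the same log2 amount in both kinds of recipient. It is the difference combination minus vehicle in pmel-1 recipients, less the same difference in control recipients. It is equally the effect of the pmel-1 transfer under the combination, less its effect under vehicle. A value of 0 is additive on the log2 scale. A positive value means that pmel-1 combination tumours read higher than additive, and a negative one that they read lower. For a gene that the drugs raise, a positive value is a larger rise in pmel-1 recipients. For a gene that they lower, a negative value is a larger fall there and a positive one a smaller fall. Values are log2 intensities, and interactions and log2 differences are given ± SE from a limma fit across 13785 genes. Genes with a Benjamini-Hochberg adjusted p under 0.05 are said to pass. Readings under 5.79, where the filter on low values was set, are treated as not well above background.

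The 6 pairs of arrays within a group had r of 0.988 to 0.994 across genes, which are no replicates of each other, and the 30 pairs between groups 0.906 to 0.994. Of 17 melanocyte genes with a probe set, at most 2 read under 5.79 on every array of a group. Among the arrays compared, a measure of RNA quality moved with 1 group. The mean log2 ratio of 3′ over 5′ signal of the Gapdh and beta-actin control probe sets was 0.86 to 1.31 in the 3 pmel-1 combination tumours, and 0.18 to 0.42 in the 6 tumours of the other groups compared. Pmel-1 tumours given 1 drug, whose arrays also entered the fit, had ratios of 0.60 to 1.65 with dabrafenib and 0.68 to 1.22 with trametinib. Adipoq, an adipocyte hormone, read 5.47, 10.05 and 7.54 in the pmel-1 combination tumours and 4.75 to 5.97 in the others. The muscle actin gene Acta1 was at 9.90 on the array of control vehicle replicate 3 and at 5.84 to 6.61 on the other 8. The part of these differences in the results was not tested beyond the values given beside them.

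Of the 32 genes with a positive interaction, 21 are among the 102 genes tested from 8 gene lists. These are the lists of interferon response, interferon-induced GTPases, MHC class I and II presentation, T cells, cytotoxic cells and leukocytes. They were grouped after the calls were seen, as the lists that held a positive gene that passed. The share of 21 in 102 is therefore fixed in part by that choice and is no test. Over the 32 the median drug effect was 2.56 in pmel-1 recipients and 0.11 in control recipients, and the median effect of the transfer was 2.56 under the combination and 0.33 under vehicle. Because the 32 were picked for these differences on the same arrays, a gap between the medians is built in. In all, 39 of 13785 genes passed (0.283%), 32 with a positive interaction (0.232% of genes tested) and 7 with a negative one (0.0508%). Their adjusted p lay between 0.0225 and 0.0499, and 28 of the 39 lay at 0.045 or above, just inside the threshold. At an adjusted p under 0.1, 121 genes would pass, 81 positive and 40 negative. At an unadjusted p under 0.05 the positive and negative interactions were about equally many, 1095 (7.94%) and 1109 (8.04%). The median SE was 0.19 for the interaction, 0.13 for the drug effect in pmel-1 and 0.14 in control recipients. The smallest interaction to pass was 0.80, in Slc5a3, a transporter of myo-inositol. The parts of the interaction differed widely in how many genes they moved. The combination raised 24.3% and lowered 21.2% of genes in pmel-1 recipients, and raised 18.7% and lowered 16.7% in control recipients. The pmel-1 transfer raised 2.66% and lowered 1.58% under the combination. Under vehicle 0 genes passed by limma (0% in each direction, smallest adjusted p 0.0671), with 1822 at an unadjusted p under 0.05.

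The count of 39 changed when single arrays were left out and when the 3′ over 5′ ratio was added to the fit. It was 0 by limma when pmel-1 vehicle replicate 1, control combination replicate 2, control combination replicate 3 or control vehicle replicate 3 was left out. Omitting pmel-1 combination replicate 1 gave 11, replicate 2 gave 19 and replicate 3 gave 33. Omitting pmel-1 vehicle replicate 2 gave 5, and omitting control vehicle replicate 1 gave 25. At an unadjusted p under 0.05 the omissions that gave 0 left 1341, 1517, 2103 and 1405 genes, in the order named. Adding the 3′ over 5′ ratio to the fit also gave 0, with 1025 genes at an unadjusted p under 0.05. Among the 9 arrays compared, the ratios of the pmel-1 combination group do not overlap the others, so ratio and group cannot be told apart there. The fit adjusts by the spread of the ratio within groups, over all 13 arrays. With dabrafenib, ratios of 0.60 and 1.65 went with Adipoq at 4.92 and 10.32, and with trametinib 1.22 and 0.68 with 9.30 and 5.41. In pmel-1 combination tumours 1.31, 1.26 and 0.86 went with 5.47, 10.05 and 7.54. The part of fat in the adjusted values was not tested. The sign of the named passing genes was steadier: all 38 kept it and kept an unadjusted p under 0.05 in all 9 omissions. The arrays of any 2 omissions overlap, and the 38 were picked for small p on the same arrays, so this is no separate support. None kept an adjusted p under 0.05 in more than 5 of the 9 omissions. With the ratio in the fit the median interaction was 1.63 over the genes with a positive call, against 2.17 without it, and −1.41 over those with a negative call, against −1.50.

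**Figure D1:**
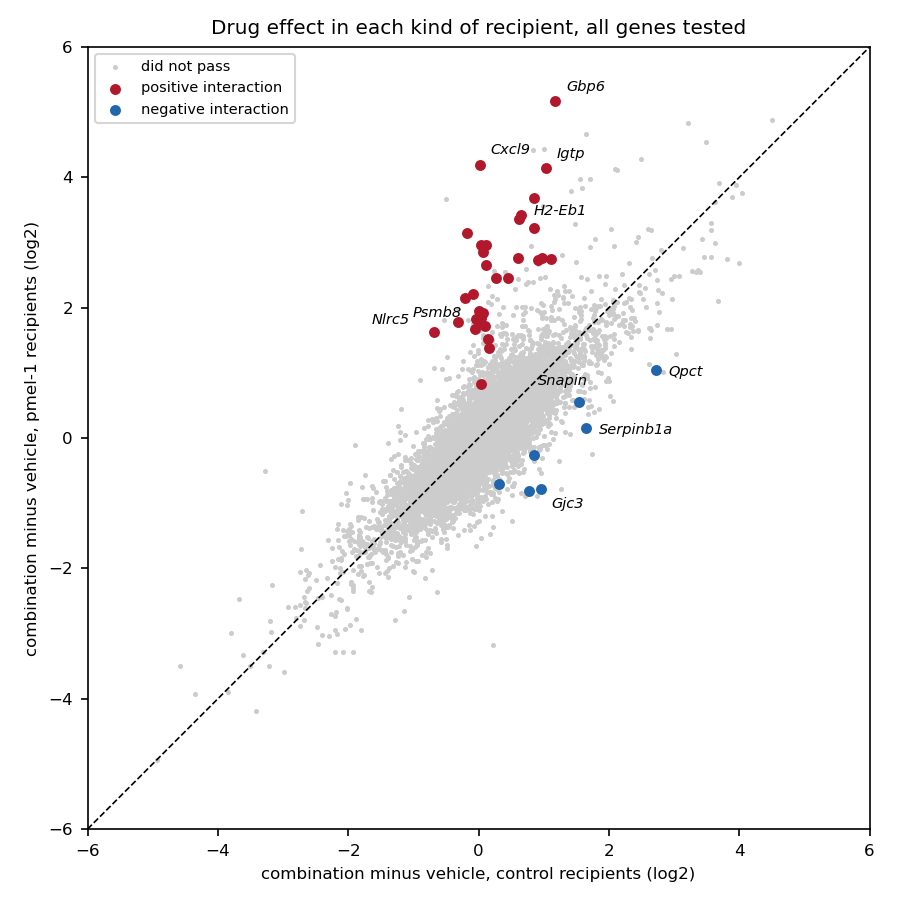
Drug effect (combination minus vehicle, log2) in control recipients on the horizontal axis and in pmel-1 recipients on the vertical axis, 1 point per gene tested; the dashed line marks equal effects. The 32 genes with a positive interaction (red) lie above the line with control effects between −0.69 and 1.18, and the 7 with a negative one (blue) lie below it.

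Cxcl9, a chemokine that draws CXCR3-bearing T cells and is induced by interferon gamma, had the largest interaction of the named genes that passed. It read 9.93, 10.77 and 10.10 in pmel-1 combination tumours and 5.64 and 6.50 in pmel-1 vehicle tumours, against 4.10 and 4.54 in control combination tumours and 4.33 and 4.27 in control vehicle tumours. All 4 control arrays were thus under 5.79, and the 3 pmel-1 combination arrays lay above the other 6 of the 9 compared. The interaction was 4.17 ± 0.45 (limma adjusted p = 0.0225), and the drugs raised it by 4.19 ± 0.31 in pmel-1 recipients. Because no control tumour read above background, its control effect has no measured size. A second probe set gave 2.74. With low values raised to 5.79 the interaction was 4.12.

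The interferon-induced GTPases of the GBP and IRG families, which coat and break up the vacuoles of intracellular pathogens made up the list with the highest median. Of the 10 family members tested 5 passed, all positive, and all 10 had a positive interaction, with a median of 2.69 against 0.02 over all genes tested. Igtp read 11.38, 12.27 and 11.80 in pmel-1 combination tumours and 7.75 and 7.60 in pmel-1 vehicle tumours, against 7.31 and 7.64 in control combination tumours and 6.15 and 6.73 in control vehicle tumours. All 3 pmel-1 combination arrays lay at least 3 log2 units above the other 6 of the 9 compared, and the control combination and pmel-1 vehicle arrays overlapped. The drugs raised Igtp by 4.14 ± 0.30 in pmel-1 recipients, and by 1.03 ± 0.33 in control recipients (limma adjusted p = 0.0292). Its interaction was 3.11 ± 0.44 (adjusted p = 0.0391). Gbp6 read 11.04, 11.99 and 10.91 in pmel-1 combination tumours and 6.06 and 6.23 in pmel-1 vehicle tumours, against 5.93 and 6.88 in control combination tumours and 5.08 and 5.37 in control vehicle tumours, and its interaction was 3.99 ± 0.70 (adjusted p = 0.0499). Iigp1 was the member with the largest transfer effect under vehicle, at 2.61 ± 0.32 (adjusted p = 0.0671), beside 5.45 ± 0.29 under the combination. Its interaction was 2.84 ± 0.44, and 3.53 with low values raised to 5.79. Such a rise needs control vehicle readings under 5.79, so the size of the Iigp1 transfer effect under vehicle is not exact. Ifi47 had an interaction of 2.93 ± 0.43 and Gbp8 one of 2.54 ± 0.43, Gbp8 with every vehicle and control array under 5.79, as was 1 of its 3 pmel-1 combination arrays. With low values raised to 5.79 the Gbp8 interaction was 0.20 (adjusted p = 0.73) and no longer passed.

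**Figure D2:**
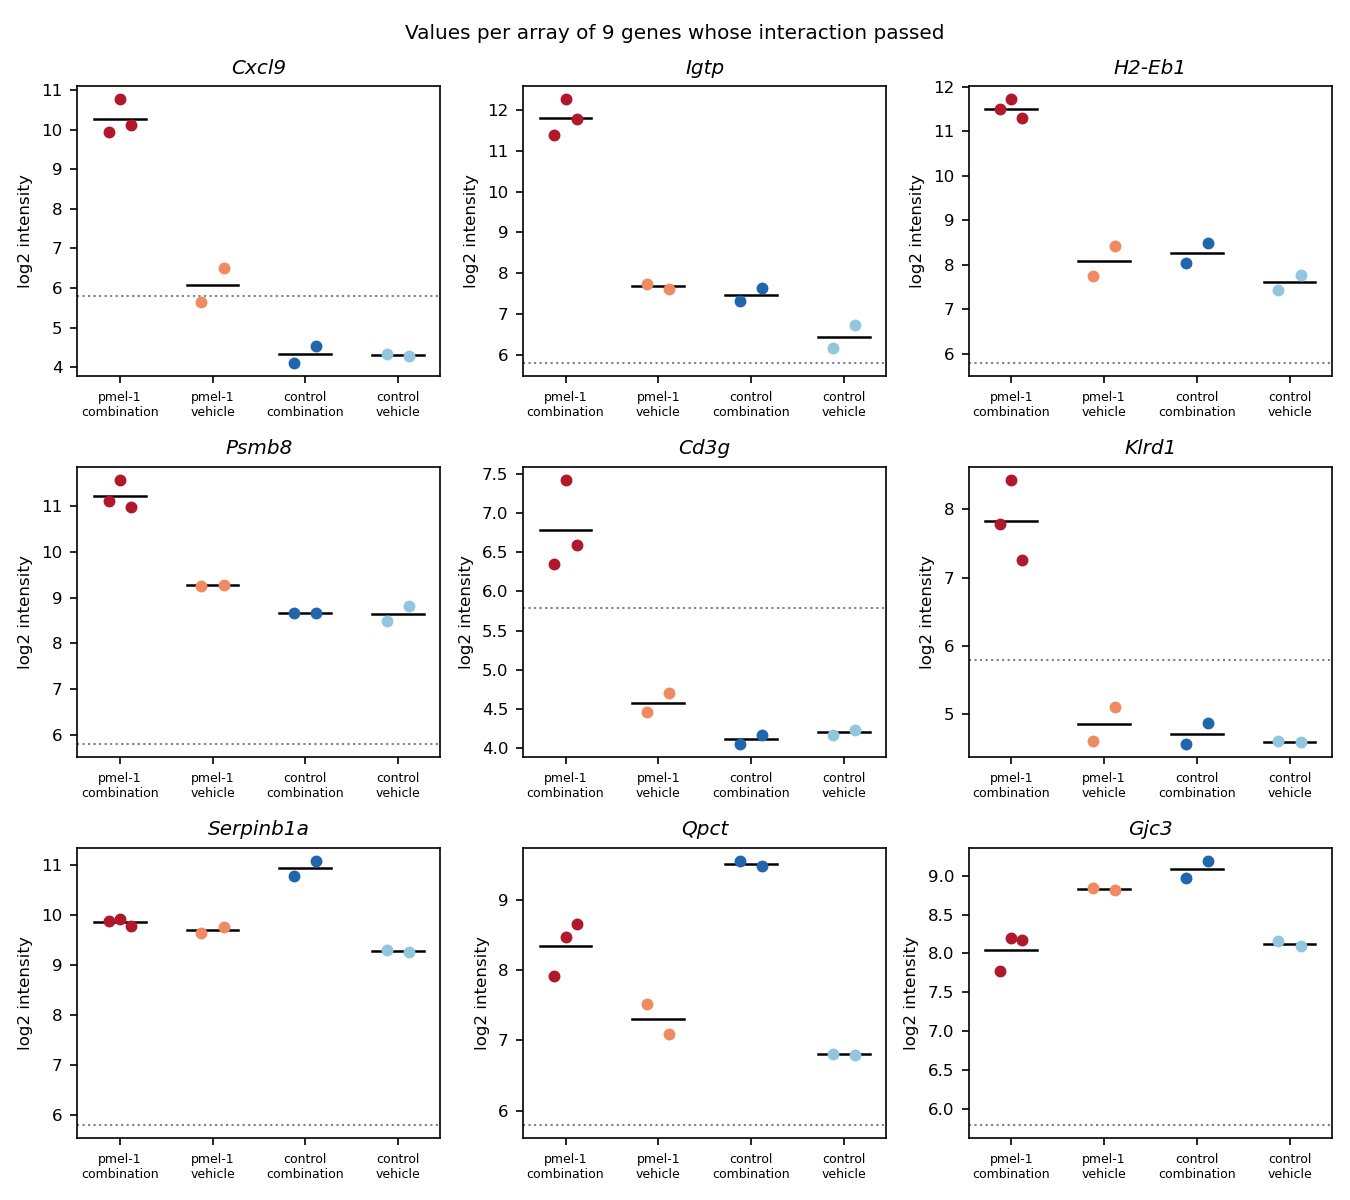
Log2 intensity of 9 genes that passed on each of the 9 arrays compared, by group (single-drug tumours are not drawn); bars are group means and the dotted line is 5.79. Cxcl9, Igtp, H2-Eb1, Psmb8, Cd3g and Klrd1 are higher in the 3 pmel-1 combination tumours than in the other 6, while Serpinb1a and Qpct are highest in the 2 control combination tumours and Gjc3 is lowest in pmel-1 combination and control vehicle tumours.

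Igtp, Bst2 and Oas1a are shown by sequence because their promoters hold both kinds of element that interferon-activated factors are known to bind. Capitals mark matches to GAAA, any 2 bases and GAAA again (ISRE-type, bound by IRF factors) and to TTCNNNGAA (GAS-type, the interferon gamma activated sequence). Stretches are from RefSeq promoter windows of GRCm38.p6, read 5′ to 3′ along the gene. They lie at chr11:58199491-58199551, plus strand (Igtp), chr8:71537567-71537628, minus strand (Bst2) and chr5:120907510-120907643, minus strand (Oas1a).
Igtp: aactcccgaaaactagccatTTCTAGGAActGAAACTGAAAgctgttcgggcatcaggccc
Bst2: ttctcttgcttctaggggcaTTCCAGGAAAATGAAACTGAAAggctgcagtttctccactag
Oas1a: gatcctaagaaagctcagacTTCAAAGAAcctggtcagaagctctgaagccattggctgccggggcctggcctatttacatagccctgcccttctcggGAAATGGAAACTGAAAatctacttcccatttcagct
In Igtp the GAS-type match begins 45 bases before the start of transcription and the ISRE-type match 34 bases before it. In Bst2 a GAS-type match at 136 bases before the start runs into the first of 2 overlapping ISRE-type matches, and in Oas1a 2 overlapping ISRE-type matches begin 20 and 14 bases before the start. Windows of 300 bases (250 before the start and 50 after it) were at hand for 22 of the 32 genes with a positive interaction. Searched on both strands, 7 of these 22 genes (31.8%) held a GAS-type and 4 (18.2%) an ISRE-type match, and 8 (36.4%) held either. Over the 11083 genes tested that had a window the shares were 8.26%, 3.59% and 11.3%. Over all 32851 windows they were 8.3% and 3.44% for GAS-type and ISRE-type. Of the 4 genes with a negative interaction and a window, Gjc3 held an ISRE-type match. A match describes letters only; binding was not measured.

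Bst2 encodes tetherin, which holds budding viruses at the cell surface, and Oas1a a synthase that senses double-stranded RNA. Both are known targets of type I as well as type II interferon. Bst2 read 12.65, 13.11 and 12.33 in pmel-1 combination tumours and 10.20 and 10.28 in pmel-1 vehicle tumours, against 10.42 and 10.47 in control combination tumours and 10.11 and 10.23 in control vehicle tumours, and its interaction was 2.18 ± 0.31 (limma adjusted p = 0.0391). The 6 arrays of the other 3 groups compared spanned 10.11 to 10.47. Oas1a rose in both kinds of recipient, by 2.73 ± 0.21 in pmel-1 recipients and by 0.91 ± 0.23 in control recipients (adjusted p = 0.0108). Its interaction was 1.82 ± 0.32 (adjusted p = 0.0498). Oas1a was the 1 gene of 21 in the type I interferon list to pass. Of the 21, 20 had a positive interaction, with a median of 1.05. Oasl2 and Usp18, a feedback inhibitor of the interferon receptor, were at 3.02 ± 0.59 (adjusted p = 0.0678) and 2.03 ± 0.43 (adjusted p = 0.0885). The drugs raised Usp18 in both kinds of recipient, by 4.13 ± 0.29 in pmel-1 and 2.10 ± 0.32 in control recipients. The median drug effect on this list was 2.07 in pmel-1 and 0.94 in control recipients.

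For genes of MHC class I presentation the median drug effect was 0.80 in pmel-1 and 0.06 in control recipients. Of 16 genes tested 4 passed, all positive, and 14 had a positive sign. The median interaction was 0.65, and 0.48 with the 3′ over 5′ ratio in the fit. The genes of the class I molecules themselves were nearer additive. H2-K1 was at 0.30 ± 0.12 (limma adjusted p = 0.266), H2-D1 at 0.29 ± 0.14 (adjusted p = 0.331) and B2m at −0.07 ± 0.15 (adjusted p = 0.879). Psmb8, a catalytic subunit of the immunoproteasome that cuts peptides for class I, read 11.11, 11.57 and 10.99 in pmel-1 combination tumours and 9.25 and 9.28 in pmel-1 vehicle tumours, against 8.67 and 8.66 in control combination tumours and 8.48 and 8.83 in control vehicle tumours. Control tumours with and without drugs overlapped, and both pmel-1 vehicle arrays lay above all 4 of them. The interaction was 1.94 ± 0.26 (limma adjusted p = 0.0391). Psmb9, its partner subunit, had 2.10 ± 0.31 (adjusted p = 0.0399), and Tap1, one chain of the transporter that carries peptides into the endoplasmic reticulum, had 2.35 ± 0.38 (adjusted p = 0.0498). A second Tap1 probe set, which read at most 5.98, gave 0.05. The nonclassical molecule H2-M3, which presents formylated peptides, had 1.63 ± 0.29. Nlrc5, the transactivator of class I genes, read 10.81, 11.41 and 10.82 in pmel-1 combination tumours and 9.35 and 9.45 in pmel-1 vehicle tumours, against 8.46 and 8.81 in control combination tumours and 9.23 and 9.40 in control vehicle tumours. Its drug effects had opposite signs, a rise by 1.62 ± 0.24 in pmel-1 recipients (adjusted p = 2.80e-04) and −0.69 ± 0.26 in control recipients (adjusted p = 0.0631), and its interaction was 2.31 ± 0.35 (adjusted p = 0.0451).

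Tap1 and Psmb9 lie head to head, and their starts in the RefSeq tables are 226 bases apart. The 275 bases that their promoter windows share are at chr17:34187306-34187580 of GRCm38.p6, given here on the plus strand, along which Tap1 is read, because 2 of the 4 class I genes that passed flank it. Neither pattern above has a match in it.
Shared by Tap1 and Psmb9: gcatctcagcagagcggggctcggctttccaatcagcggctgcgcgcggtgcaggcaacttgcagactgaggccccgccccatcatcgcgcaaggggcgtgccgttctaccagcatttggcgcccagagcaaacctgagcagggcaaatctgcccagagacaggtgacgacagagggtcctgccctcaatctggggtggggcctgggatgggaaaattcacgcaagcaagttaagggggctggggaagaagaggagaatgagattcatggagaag

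MHC class II genes, which present peptides to CD4 T cells, are expressed by macrophages, dendritic cells and B cells, and by other cells under interferon gamma. Of 8 tested 3 passed and all 8 had a positive interaction, with a median of 1.90. The beta chain gene H2-Eb1 read 11.50, 11.73 and 11.31 in pmel-1 combination tumours and 7.75 and 8.43 in pmel-1 vehicle tumours, against 8.04 and 8.49 in control combination tumours and 7.44 and 7.78 in control vehicle tumours. The pmel-1 vehicle values overlapped those of both control groups, and both control combination arrays lay above both control vehicle arrays. The interaction was 2.76 ± 0.38 (limma adjusted p = 0.0391), from a rise by 3.42 ± 0.26 in pmel-1 recipients and a difference of 0.66 ± 0.28 in control recipients (adjusted p = 0.0944). H2-Ab1, the other beta chain, had 2.37 ± 0.41 and H2-DMa, which helps load peptides, had 1.79 ± 0.32. For H2-Ab1 the other probe sets gave 2.22 and 2.29. The alpha chain gene H2-Aa and the invariant chain gene Cd74 were in the same range with wider errors, 2.0 ± 0.55 (adjusted p = 0.146) and 2.37 ± 0.51 (adjusted p = 0.0886). Other H2-Aa probe sets gave 2.47 to 3.91. Ciita, the master regulator of class II, had 0.91 ± 0.19 (adjusted p = 0.0851), with every control array under 5.79.

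Markers of T cells and of cytotoxic cells read under 5.79 in part, and more of them did so outside the pmel-1 combination group. In bulk tumour RNA, fewer cells of a type and less RNA per cell cannot be told apart. Of 15 T cell markers with a probe set, 4 read under 5.79 on every pmel-1 combination array, 6 on every pmel-1 vehicle array, 7 on every control combination array and 6 on every control vehicle array. Their summed level was 11.18 to 11.27 in pmel-1 combination and 10.75 to 10.80 in pmel-1 vehicle tumours, against 10.86 to 11.06 in control combination and 10.76 to 11.10 in control vehicle tumours. Cd3g, which encodes a CD3 chain, read 6.35, 7.42 and 6.59 in pmel-1 combination tumours and 4.46 and 4.70 in pmel-1 vehicle tumours, against 4.05 and 4.17 in control combination tumours and 4.17 and 4.23 in control vehicle tumours. Its interaction was 2.30 ± 0.37 (limma adjusted p = 0.0498), and pmel-1 combination replicate 2 was the highest array. With low values raised to 5.79 it was 0.995 (adjusted p = 0.218) and did not pass. Of the 10 T cell genes tested Cd3g alone passed, 9 had a positive sign and the median was 0.38. Cd3d, another chain, was at 1.24 ± 0.23 (adjusted p = 0.0661), Cd3e at 0.47 ± 0.20 (adjusted p = 0.288) and the signalling adaptor Lat at 0.48 ± 0.14 (adjusted p = 0.158). Cd8a was at −0.04 ± 0.15 (adjusted p = 0.938) and Zap70 at 0.03 ± 0.21 (adjusted p = 0.973). Outside the list, Ms4a4b, a membrane protein of T cells, had 3.32 ± 0.49 (adjusted p = 0.0391) and the T cell receptor beta segment Trbv1 2.79 ± 0.45 (adjusted p = 0.0498). Trbv1 read 8.61, 9.54 and 8.53 in pmel-1 combination and 5.85 and 6.22 in pmel-1 vehicle tumours, against under 5.79 on all 4 control arrays. Of the 9 arrays compared, Ms4a4b was above that level on the 3 of pmel-1 combination tumours, and it read 7.97 and 8.03 with dabrafenib alone.

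Of 11 cytotoxic and NK genes tested 3 passed: Klrd1, which encodes the CD94 receptor chain of NK and activated CD8 T cells, the granule protein gene Nkg7 and the granzyme gene Gzma. Klrd1 read 7.78, 8.42 and 7.26 in pmel-1 combination tumours and 4.60 and 5.11 in pmel-1 vehicle tumours, against 4.56 and 4.87 in control combination tumours and 4.61 and 4.59 in control vehicle tumours. Of the 9 arrays compared, the 3 of pmel-1 combination tumours were above 5.79. Of 16 such markers with a probe set, 5 stayed under that level on every pmel-1 combination array and 10 in each of the other 3 groups. Their summed level was 11.03 to 11.87 in pmel-1 combination and 9.77 to 9.82 in pmel-1 vehicle tumours, against 9.74 to 9.89 in control combination and 9.49 to 9.81 in control vehicle tumours. For Klrd1 the interaction was 2.85 ± 0.48 (limma adjusted p = 0.0498), that of Nkg7 1.87 ± 0.32 and that of Gzma 1.85 ± 0.32 (adjusted p = 0.0498 for each). The median over the list was 1.31, and 0.77 with low values raised to 5.79. Of the 11, 9 had a positive sign, while Prf1 was at −0.17 ± 0.19 and Ncr1 at −0.10 ± 0.18. Il2rb was at 0.15 ± 0.19. Klrd1, Gzma and Gzmb read under 5.79 on every control and pmel-1 vehicle array. They were thus tested only because drug-treated pmel-1 arrays were high. Ifng, Fasl, Gzmk, Klrc1 and Tbx21 had a probe set but were left out by the filter. The list median and signs are therefore set in part by the filter. Gzmb, the granzyme that cleaves caspases in target cells, was at 1.31 ± 0.42 (adjusted p = 0.188) and the chemokine gene Ccl5 at 1.87 ± 0.41 (adjusted p = 0.092). Ccl5 was well above background throughout, with 10.52, 11.02 and 9.92 in pmel-1 combination tumours and 7.87 and 7.91 in pmel-1 vehicle tumours, against 8.42 and 7.92 in control combination tumours and 7.23 and 7.66 in control vehicle tumours. In all, 8 of the 32 genes with a positive interaction stayed under 5.79 on all 4 control arrays. They were Cxcl9, Ms4a4b, Klrd1, Trbv1, Gbp8, Cd3g, Gzma and Ipcef1, and the sizes of these 8 interactions are not exact. Ms4a4b, Gbp8 and Cd3g, like Klrd1 and Gzma, were under 5.79 on every pmel-1 vehicle array as well. These genes met the filter only through drug-treated pmel-1 arrays, so their positive sign is in part built in. With low values raised to 5.79, Cxcl9 and Trbv1 (2.86) still passed, while Ms4a4b (1.82, adjusted p = 0.122), Klrd1 (2.03, adjusted p = 0.0984), Gbp8, Cd3g, Gzma (1.38, adjusted p = 0.0748) and Ipcef1 (0.96, adjusted p = 0.141) did not. In that fit 22 genes passed, 17 of them among the 39.

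Of the general leukocyte genes all 16 tested had a positive interaction (median 0.96) and 2 passed, Ptprc (2.16 ± 0.36, adjusted p = 0.0498) and Cd52 (1.79 ± 0.31, adjusted p = 0.0498). Ptprc encodes CD45, the phosphatase common to all nucleated blood cells, and read 9.51, 9.83 and 9.37 in pmel-1 combination tumours and 6.67 and 6.94 in pmel-1 vehicle tumours, against 6.90 and 7.41 in control combination tumours and 6.52 and 6.57 in control vehicle tumours. The summed level of the 16 genes was 12.95 to 13.41 in pmel-1 combination tumours and 11.44 to 11.48 in pmel-1 vehicle tumours, against 11.50 to 11.68 in control combination and 11.05 to 11.08 in control vehicle tumours. The part of leukocyte number in the other interactions was not tested. Among further leukocyte genes that passed were Il12rb1, a receptor chain for interleukins 12 and 23 (2.01 ± 0.32), the selectin ligand gene Selplg (1.22 ± 0.21) and Clec7a, which encodes the myeloid receptor dectin-1 (1.62 ± 0.27). Clec7a rose in both kinds of recipient, by 2.74 ± 0.18 in pmel-1 and 1.12 ± 0.20 in control recipients. Gimap8, a GTPase gene of lymphocytes, had 1.38 ± 0.24, Plbd1, a phospholipase-like gene, 1.76 ± 0.31, and Ipcef1 1.72 ± 0.30.

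In the interferon gamma list all 10 genes had a positive sign (median 1.38), 2 passed and 8 had a positive interaction at an unadjusted p under 0.05. Among 15 chemokine and receptor genes 0 passed by limma, with 2 positive and 1 negative at an unadjusted p under 0.05 (median 0.46). With the 3′ over 5′ ratio in the fit the median was 0.82 for the interferon gamma list and 0.09 for the chemokine list, and it was 0.62 for the type I interferon, 0.54 for the general leukocyte, 1.29 for the MHC class II, 0.94 for the cytotoxic and 0.24 for the T cell list. Ccl8, a chemokine of monocytes, was at 1.35 ± 0.41 (adjusted p = 0.169).

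In the macrophage list 12 of 14 genes had a positive sign but 0 passed by limma (median 0.65), with 4 positive and 1 negative at an unadjusted p under 0.05. With the 3′ over 5′ ratio in the fit that median was 0.02. Csf1r, the receptor on which macrophages depend, read 10.95, 11.02 and 10.90 in pmel-1 combination tumours and 8.85 and 9.12 in pmel-1 vehicle tumours, against 9.43 and 10.10 in control combination tumours and 8.45 and 8.81 in control vehicle tumours. It rose in both kinds of recipient, by 1.97 ± 0.29 in pmel-1 recipients and 1.13 ± 0.32 in control recipients, and its interaction was 0.84 ± 0.43 (95% interval −0.11 to 1.78, adjusted p = 0.365). Fcgr4, an activating Fc receptor, had 1.87 ± 0.36 (adjusted p = 0.0662). Of the dendritic cell, B cell, neutrophil, regulatory T cell and checkpoint lists, with 5, 4, 3, 2 and 5 genes tested, 0 genes passed by limma, and 2, 0, 0, 1 and 0 had an unadjusted p under 0.05. The largest of these was Itgax, an integrin of dendritic cells and macrophages, at 1.47 ± 0.33 (adjusted p = 0.106).

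**Figure D3:**
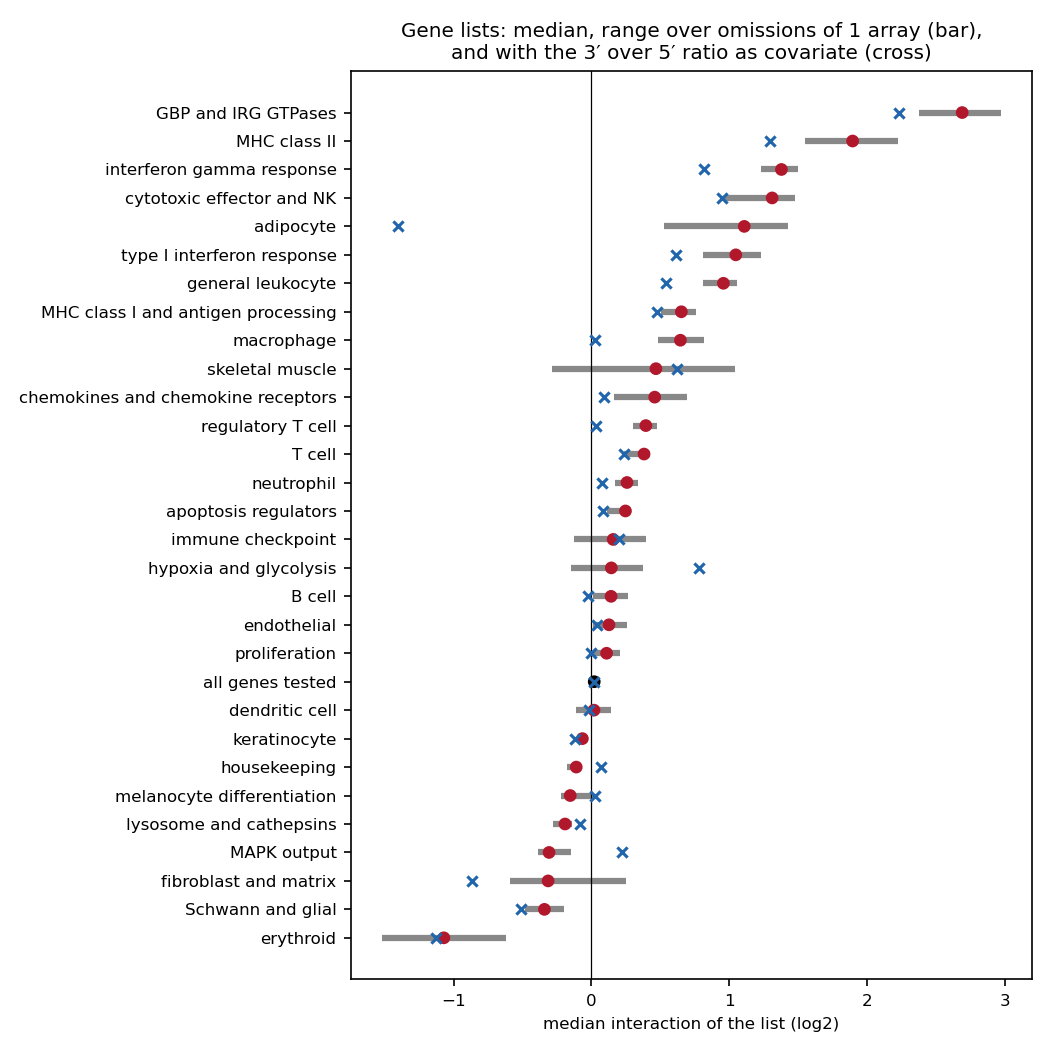
Median interaction (log2) of each gene list (dot), with its range when each of the 9 arrays is left out in turn (bar) and its value with the 3′ over 5′ ratio in the fit (cross). The medians run from −1.07 (erythroid) to 2.69 (GBP and IRG GTPases), against 0.02 over all genes tested.

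Genes downstream of the drugs' targets gave no interaction that passed. Of 18 MAPK output genes 0 passed by limma, with 1 at an unadjusted p under 0.05, and the median was −0.31 (0.22 with the 3′ over 5′ ratio in the fit). The ERK phosphatase gene Dusp6 had 0.01 ± 0.50 (95% interval −1.09 to 1.12), so differences of more than 2-fold either way are inside its interval. Egr1, an immediate early factor, fell in both kinds of recipient, by 2.87 ± 0.31 in pmel-1 and by 1.97 ± 0.34 in control recipients, with an interaction of −0.91 ± 0.46 (95% interval −1.93 to 0.12). Fos had the smallest p of the list, at −1.31 ± 0.50 (adjusted p = 0.244). Pmel, the gene of the antigen that the transferred T cells see, read 13.93, 14.16 and 14.11 in pmel-1 combination tumours and 12.82 and 12.56 in pmel-1 vehicle tumours, against 13.93 and 14.14 in control combination tumours and 12.67 and 12.34 in control vehicle tumours. The drugs raised it by 1.37 ± 0.14 in pmel-1 recipients and 1.53 ± 0.15 in control recipients, and the interaction of −0.15 ± 0.20 had a 95% interval −0.60 to 0.30. The 2 combination groups overlapped in Pmel level. In the 17 melanocyte genes tested 0 passed by limma, with 2 at an unadjusted p under 0.05, and the median was −0.15. Those 2 were Ednrb, the endothelin receptor of the pigment lineage (−0.56 ± 0.18, adjusted p = 0.189, with −1.93 and −1.20 on other probe sets), and the melanosome trafficking gene Rab38 (0.53 ± 0.21, adjusted p = 0.261, with 0.07 on a second probe set). Tyr was at −0.26 ± 0.14 (adjusted p = 0.379) on the probe set kept. Its other probe sets, which read up to 10.89 and 12.12, gave −1.84 and −0.56 and were not tested, so the size depends on the probe set.

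In the proliferation and glycolysis lists 0 of 19 and 0 of 15 genes passed by limma. At an unadjusted p under 0.05 there were 1 and 0. Mcm5, a subunit of the replicative helicase, had 0.46 ± 0.27 (95% interval −0.13 to 1.06) and Slc2a1, the glucose transporter, 0.17 ± 0.44 (95% interval −0.80 to 1.14). With the 3′ over 5′ ratio in the fit Slc2a1 was at 0.97 ± 0.37, the hexokinase gene Hk2 at 1.21 ± 0.23 and the lactate dehydrogenase gene Ldha at 1.14 ± 0.33, and the median of the glycolysis list was 0.78, against 0.14 without the ratio. Median drug effects on proliferation genes were −0.37 in pmel-1 recipients and −0.52 in control recipients, and on glycolysis genes −0.98 and −1.25. The mitotic kinase gene Aurkb was the 1 below that p, at −0.89 ± 0.30 (adjusted p = 0.203). For the 9 apoptosis regulators the median was 0.25, with the pore-forming Bak1 at 0.57 ± 0.17 (adjusted p = 0.167). Of 14 fibroblast, 10 endothelial, 3 adipocyte, 4 skeletal muscle, 4 keratinocyte, 2 erythroid and 8 housekeeping genes 0 passed by limma, with 2, 0, 0, 0, 0, 1 and 0 at an unadjusted p under 0.05. Their medians ran from −1.07 (erythroid) to 1.11 (adipocyte), which was −1.40 for the adipocyte list with the 3′ over 5′ ratio in the fit, and Adipoq had 2.32 ± 2.35.

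Of the 7 genes with a negative interaction, 5 had their highest group mean in control combination tumours and the other 2, Ctsk and Zc3h6, in pmel-1 vehicle tumours. Serpinb1a, an inhibitor of granule serine proteases, had the smallest p of the 7 and read 9.88, 9.93 and 9.79 in pmel-1 combination tumours and 9.65 and 9.77 in pmel-1 vehicle tumours, against 10.79 and 11.08 in control combination tumours and 9.30 and 9.27 in control vehicle tumours. The 2 control combination arrays lay above all others. Its drug effect was 0.16 ± 0.12 in pmel-1 recipients (limma adjusted p = 0.338), against a rise by 1.65 ± 0.13 in control recipients (adjusted p = 9.54e-06), and the interaction was −1.50 ± 0.18 (adjusted p = 0.0312). A second probe set gave −1.26. Qpct encodes an enzyme that cyclises the first glutamine of secreted peptides. It read 7.92, 8.47 and 8.66 in pmel-1 combination tumours and 7.51 and 7.10 in pmel-1 vehicle tumours, against 9.55 and 9.49 in control combination tumours and 6.81 and 6.79 in control vehicle tumours. It rose in both kinds of recipient, by 1.05 ± 0.19 in pmel-1 recipients and 2.72 ± 0.21 in control recipients, and its interaction was −1.68 ± 0.28 (adjusted p = 0.0498).

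Gjc3, a connexin of myelinating glia, read 7.77, 8.20 and 8.17 in pmel-1 combination tumours and 8.84 and 8.82 in pmel-1 vehicle tumours, against 8.97 and 9.19 in control combination tumours and 8.15 and 8.10 in control vehicle tumours. Here the drug effects had opposite signs and both passed: it fell by 0.78 ± 0.16 in pmel-1 recipients (limma adjusted p = 0.002) and rose by 0.96 ± 0.17 in control recipients (adjusted p = 0.0014). The interaction was −1.74 ± 0.23 (adjusted p = 0.0391), and −0.53 on a second probe set. Gjc3 was 1 of 10 Schwann and glial genes tested. Of those 10, 8 had a negative sign (median −0.34) and 5 had a negative interaction at an unadjusted p under 0.05. Mbp, which encodes myelin basic protein, had −1.23 ± 0.25 (adjusted p = 0.0764) and rose in both kinds of recipient, by 1.67 ± 0.17 in pmel-1 and 2.89 ± 0.18 in control recipients. Other Mbp probe sets gave −1.35 to −0.73, except those that read at most 6.87 and 6.98, which gave 0.18 and 0.16. Ctsk, a collagen-cutting protease, had −1.02 ± 0.17, the membrane-anchored ubiquitin-like gene Ubl3 −1.12 ± 0.18 and the zinc finger gene Zc3h6 −1.60 ± 0.27 (adjusted p = 0.0498 each). Ctsk was the 1 gene of 11 in the lysosome list to pass (median −0.19). Snapin, a vesicle fusion adaptor, had −0.995 ± 0.17, but a second probe set went the other way at 0.34. Slc5a3 among the positive genes likewise had a second probe set at −8.46e-04.

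**Figure D4:**
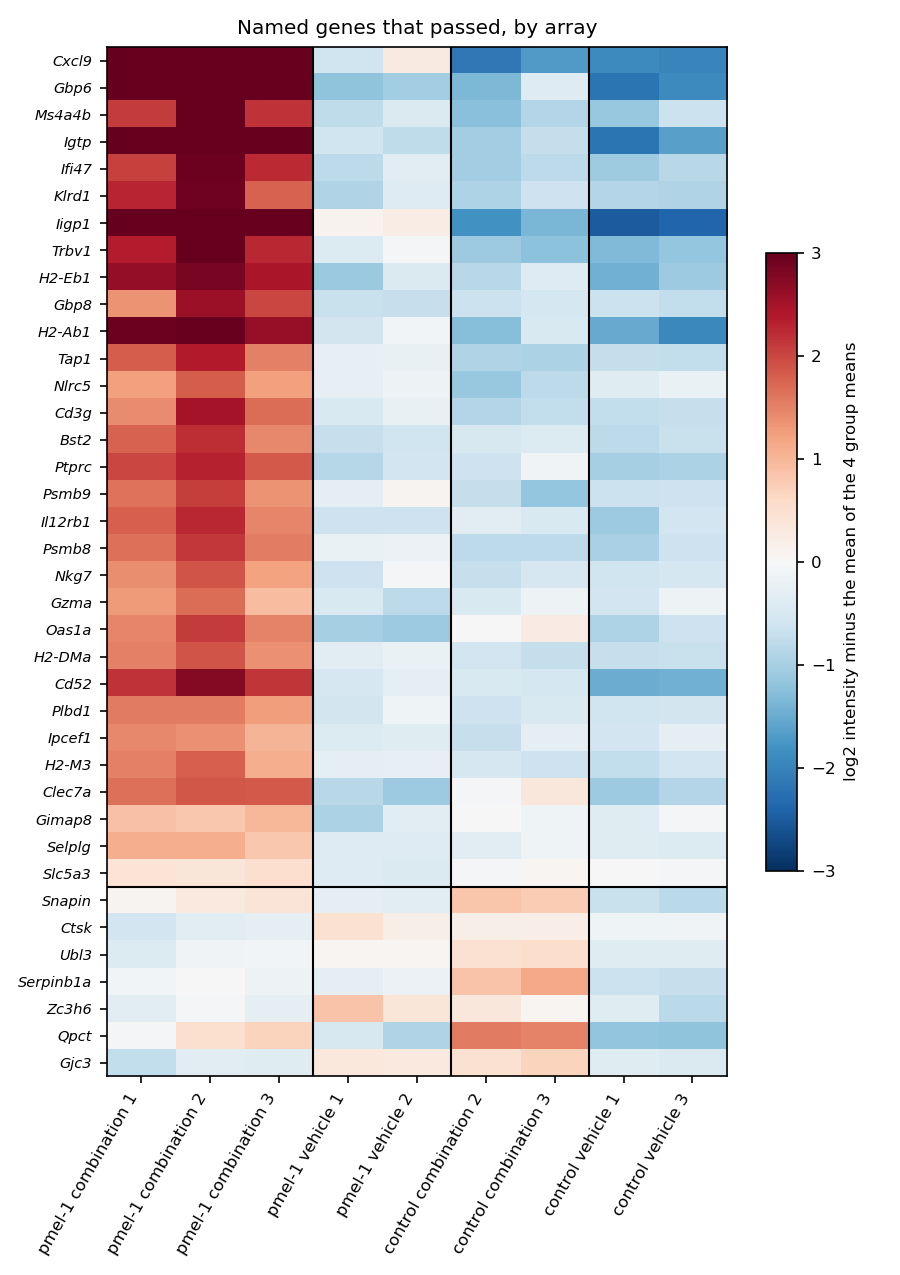
Log2 intensity of the 38 named genes that passed, 1 row per gene and 1 column per array, less the mean of the 4 group means; colours saturate at 3 log2 units either way. Positive interactions (top) are red in the 3 pmel-1 combination columns, and among the negative ones (bottom) Serpinb1a and Qpct are reddest in the control combination columns.

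Tumours of pmel-1 recipients given 1 drug, which enter no interaction, show where the values lie between vehicle and combination; no test was made of them here. Cxcl9 read 9.79 and 10.34 with dabrafenib alone and 8.33 and 7.76 with trametinib alone, and H2-Eb1 11.42 and 12.13 with dabrafenib and 9.71 and 9.31 with trametinib. The dabrafenib values of Cxcl9 lay below and inside the range of the pmel-1 combination tumours (9.93 to 10.77). Those of H2-Eb1 lay in or above the range of the pmel-1 combination tumours, and the trametinib values between combination and vehicle. Klrd1 followed the same order, at 7.76 and 8.47 with dabrafenib and 6.21 and 5.55 with trametinib. In Serpinb1a, by contrast, dabrafenib and trametinib tumours of pmel-1 recipients read 10.27 and 10.22 and 9.75 and 10.09, all below the 2 control combination tumours. In these 4 tumours the 3′ over 5′ ratio was 0.60 and 1.65 with dabrafenib and 1.22 and 0.68 with trametinib. No control recipients were given a single drug, so the interaction of either drug alone with the transfer has no value here.

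**Figure D5:**
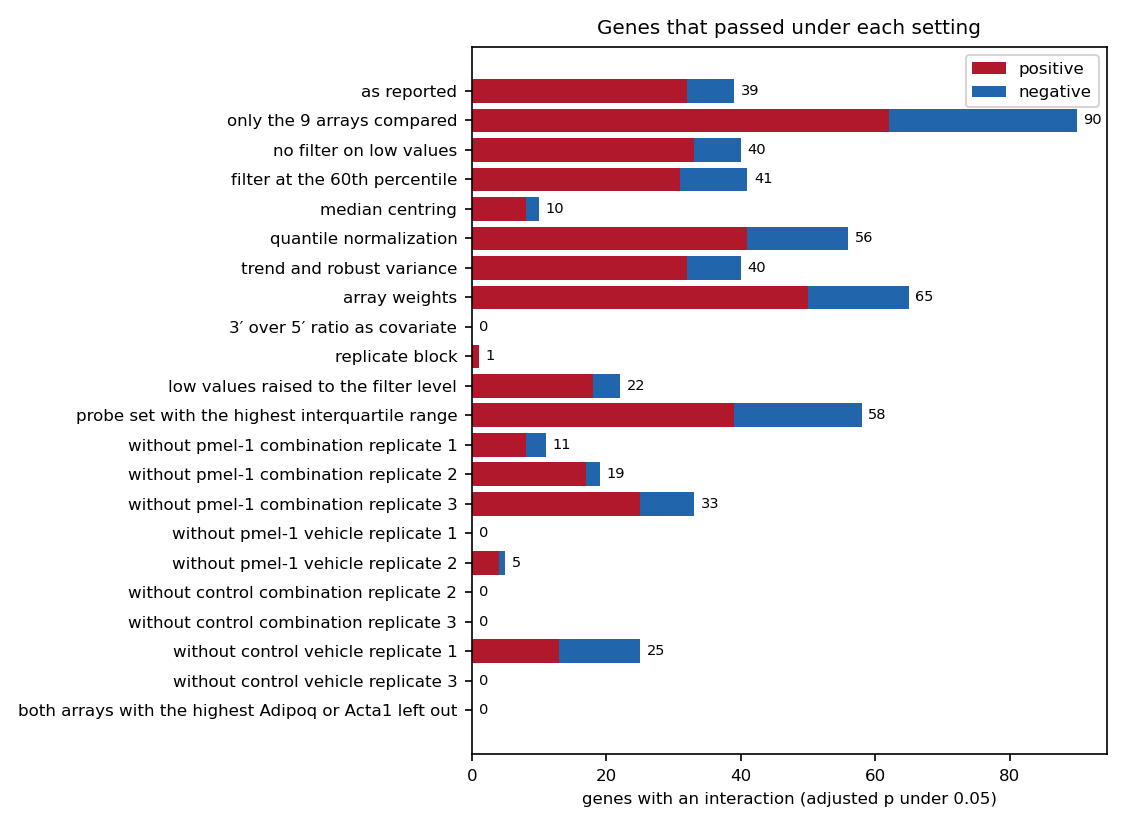
Number of genes with an interaction at an adjusted p under 0.05 under each setting, split into positive and negative. It runs from 0, in 6 settings, to 90 with only the 9 arrays compared.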

How the data were processed

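RNA of SM1 tumours was hybridised to Affymetrix GeneChip mouse arrays, per the labels' protocols. The deposited values are log2 intensities per probe set, made by the authors with RMA and the affy package, per the submitters' processing notes, which give no versions. Filters before deposition, if any, were not stated. RMA quantile-normalises arrays together and compresses differences near background, so a gene that is off in a group gives a drug effect near 0 there.

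Of 45101 probe sets, 64 were array controls, 34945 had 1 gene symbol in the platform table, 932 several and 9160 none. The probe set with the highest mean was kept for each of 18193 symbols, and a gene was tested if at least 2 arrays exceeded 5.79, the 40th percentile over every value, which left 13785. Of these 13710 matched a RefSeq gene, with 0 symbols changed. In R 4.3.3, limma 3.58.1 fitted a mean for each of the groups to the 13 arrays (7 residual degrees of freedom), p-values were adjusted by Benjamini-Hochberg over all genes tested, and the fit was tested on simulated data. Named are all genes that passed, except 1 clone-type symbol, and from each gene list its first gene plus at most 4 others, by p. Some further list members are named beside them, chosen after their values were seen. Lists, members and tests were chosen with earlier results of these data known. Lists are described by counts and medians. Summed levels are log2 of the sum of linear intensities over members. Promoter windows are from RefSeq (GRCm38.p6). Alternatives changed the arrays fitted, the filter, the scaling, the variance model, the probe set, low values and covariates. The number of arrays limits the precision.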

Additional observations from a re-analysis of the deposited data

Results flagged for a closer look

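The 39 genes that passed are listed for a closer look because the interaction is itself a test that the drug effect differed between pmel-1 and control recipients. Among interferon-induced genes the log2 interactions were Cxcl9 (4.17), Gbp6 (3.99), Igtp (3.11), Ifi47 (2.93), Iigp1 (2.84), Gbp8 (2.54), Bst2 (2.18) and Oas1a (1.82). For antigen presentation they were H2-Eb1 (2.76), H2-Ab1 (2.37), Tap1 (2.35), Nlrc5 (2.31), Psmb9 (2.10), Psmb8 (1.94), H2-DMa (1.79) and H2-M3 (1.63). Lymphocyte and leukocyte genes had Ms4a4b (3.32), Klrd1 (2.85), Trbv1 (2.79), Cd3g (2.30), Ptprc (2.16), Il12rb1 (2.01), Nkg7 (1.87), Gzma (1.85), Cd52 (1.79) and Selplg (1.22). Other positive interactions were Plbd1 (1.76), Ipcef1 (1.72), Clec7a (1.62), Gimap8 (1.38) and Slc5a3 (0.80). Drug effects smaller in pmel-1 than in control recipients, or opposite to them, were those of Snapin (−0.995), Ctsk (−1.02), Ubl3 (−1.12), Serpinb1a (−1.50), Zc3h6 (−1.60), Qpct (−1.68) and Gjc3 (−1.74). Groups of 2 or 3 arrays are too small to test a single array as an outlier.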

How the results depend on the processing

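Counts are given in total, then positive and negative in brackets, against 39 (32 and 7). They were 90 (62 and 28) with only the 9 arrays compared, 10 (8 and 2) after median centring, 56 (41 and 15) after quantile normalization, 65 (50 and 15) with array weights and 58 (39 and 19) with the probe set of the highest interquartile range. They were 22 (18 and 4) with low values raised to 5.79, 1 (1 and 0) with a replicate block and 0 (0 and 0) once the 3′ over 5′ ratio was a covariate (1025 genes at an unadjusted p under 0.05 by limma). Leaving out pmel-1 combination replicate 2 and control vehicle replicate 3 together, an alternative chosen after seeing the data, gave 0 (0 and 0), with 1096 genes at an unadjusted p under 0.05. Leaving out each of the 9 arrays in turn gave 0 to 33 genes, 0 to 25 positive and 0 to 12 negative. The count was 40 without the filter, 41 with a filter at the 60th percentile and 40 with trend and robust variance. Of the 39 genes the 9 arrays alone kept 38 and median centring kept 10. Of the named passing genes only Slc5a3 reversed, to −8.46e-04 with the probe set of the highest interquartile range, and all 38 kept their sign on the linear intensity scale. Deviations from the group means of same-numbered arrays in different groups had r from −0.302 to 0.0672 over 9 pairs. In a group of 2 arrays these deviations are equal and opposite, so this check cannot tell whether the replicate numbers pair the samples. The cause of these changes was not tested.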

Other observations

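Irf8, a transcription factor of macrophages and dendritic cells that interferon gamma induces, missed the threshold. It read 8.83, 9.78 and 9.39 in pmel-1 combination tumours and 9.33 and 10.34 in pmel-1 vehicle tumours, against 7.62 and 6.77 in control combination tumours and 10.48 and 10.47 in control vehicle tumours. Its drug effect was −0.51 ± 0.34 in pmel-1 recipients (limma adjusted p = 0.251), and it fell by 3.28 ± 0.37 in control recipients (adjusted p = 6.95e-05). The interaction was 2.77 ± 0.50 (95% interval 1.68 to 3.87, adjusted p = 0.0546), and 1.36 on a second probe set. With dabrafenib alone it read 9.68 and 9.51 and with trametinib alone 7.89 and 7.48.

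Ccl11, the chemokine eotaxin that draws eosinophils, read 5.38, 5.81 and 5.96 in pmel-1 combination tumours and 5.24 and 5.39 in pmel-1 vehicle tumours, against 7.61 and 7.68 in control combination tumours and 5.63 and 6.13 in control vehicle tumours. It rose by 1.77 ± 0.26 in control recipients (limma adjusted p = 4.22e-04), and its interaction was −1.36 ± 0.36 (adjusted p = 0.141). The small proteoglycan gene Dcn read 8.22, 9.0 and 9.20 in pmel-1 combination tumours and 7.52 and 8.05 in pmel-1 vehicle tumours, against 10.58 and 11.11 in control combination tumours and 7.61 and 8.44 in control vehicle tumours, with an interaction of −1.80 ± 0.79 (adjusted p = 0.294). Its relative Lum had −1.73 ± 0.90 (adjusted p = 0.374). None of the 14 fibroblast and matrix genes tested passed by limma (2 at an unadjusted p under 0.05). Of the 14, 4 had a positive interaction, Col1a1 (0.74), Col5a1 (0.51), Pdgfrb (0.46) and Fap (0.32), named after their values were seen. The median was −0.31, and it ranged from −0.59 to 0.25 when each array was left out in turn.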
